A study of Homo sapiens with 3 samples.

Results

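The lysosome and autophagy genes described here are a list of 47 genes, chosen by name with earlier results of these data known. They are genes for lysosomal hydrolases, lysosomal membrane proteins, subunits of the lysosomal proton pump and factors of autophagy. All probe sets annotated to 1 of these genes alone were taken, which gave 116 of the 54613 probe sets on the array. They covered 46 of the 47 genes. GLB1, the lysosomal beta-galactosidase, had only a probe set that names another gene as well and was not analysed here. Of the 116 probe sets, 96 passed a filter on low signal (a mean of at least 42.0 over the arrays), and each of the 46 genes kept at least 1. They stand among 12307 genes that passed the same filter.

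Expression was measured in IMR-90 cells, fibroblasts of normal human fetal lung, which were collected 24 h after they were given SETD8 siRNA 1, SETD8 siRNA 2 or the control siRNA, which the labels call GL3. SETD8, now named KMT5A, is the enzyme that places 1 methyl group on lysine 20 of histone H4. The comparison asks how expression differs between cells depleted of SETD8 and control cells. Each siRNA stands for 1 culture on 1 array, so differences could not be set against a spread between replicates, and none was tested. All 3 cultures received the reagent RNAiMAX.

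Lysosomes are acidic organelles in which proteins, glycans and lipids delivered by endocytosis or by autophagy are broken down. Autophagy encloses cytoplasm in a double membrane that carries lipid-linked LC3 proteins and then fuses with the lysosome. Many genes of both pathways carry a CACGTG-type element near the start of transcription that TFEB and its relatives bind. An enlarged lysosomal compartment with raised beta-galactosidase activity is a known feature of senescent fibroblasts.

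KMT5A had a signal of 431.4 with SETD8 siRNA 1, 584.1 with SETD8 siRNA 2 and 938.9 with the control siRNA on its brightest probe set. All 4 of its probe sets were lower on both SETD8 siRNA arrays, at 45.9% to 74.7% of control with SETD8 siRNA 1 and at 62.2% to 86.3% with SETD8 siRNA 2. The median signal over all probe sets was 45.3, 44.9 and 46.2 on the SETD8 siRNA 1, SETD8 siRNA 2 and control arrays. All 9 fibroblast markers passed the filter on signal, with a summed signal of 149711 with SETD8 siRNA 1, 168076 with SETD8 siRNA 2 and 158218 with the control siRNA. Single fibroblast markers moved more than this sum: DCN, the matrix protein decorin, had 7745.9, 22971.2 and 20075.4, and LUM, the related lumican, had 10701.6, 23797.7 and 13728.6. Among markers of other cell types, those of epithelium summed to 3233.4, 6528.4 and 3404.9 (4 of 6 above the filter). This was mostly KRT18, at 2962.8, 6010.1 and 2987.4. Those of endothelium summed to 1570.3, 2175.2 and 1368.4 (3 of 5 above the filter), mostly TEK at 1274.8, 2033.1 and 1251.3. PECAM1 (135.0, 52.7 and 49.0) and VWF (130.5, 80.9 and 59.7), the other endothelial markers above the filter, were highest with SETD8 siRNA 1. The part of other cell types in the results was not tested. As a rough yardstick of size, the log2 distance separating SETD8 siRNA 1 from SETD8 siRNA 2 was taken at its 95th percentile over all genes. This was 2.21, 1.72, 1.25 and 1.14 on the log2 scale from the lowest to the highest quartile of signal, and it holds array noise together with any difference between the siRNAs.

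Lysosome and autophagy genes were mostly a little higher on both SETD8 siRNA arrays. Of the 46 genes, 34 were higher than control with both siRNAs at any size, against 31.1% of all 12307 genes. Only ARSA, GUSB and ATG7, 3 of the 46, were lower with both, against 33.9% of all genes, and for 9 genes the siRNAs lay on opposite sides of the control. The median log2 fold change was 0.37 with SETD8 siRNA 1 and 0.25 with SETD8 siRNA 2, or 1.29-fold and 1.19-fold, where the medians over all genes were -0.02 and -0.01. The lowest and highest single genes were at -0.35 and 3.68 for SETD8 siRNA 1, and at -0.57 and 1.38 for SETD8 siRNA 2. Taken singly, SETD8 siRNA 1 was above control for 41 of the 46 genes (48.4% of all genes), SETD8 siRNA 2 for 36 (48.9% of all genes), and SETD8 siRNA 1 was above SETD8 siRNA 2 for 28 (50.2% of all genes). In bulk RNA, a change in the kinds of cells present and a change of RNA per cell cannot be told apart. Both comparisons use the same control array, so a high or low reading there moves both at once.

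Changes of 2-fold or more were few. At least 2-fold higher with both siRNAs were 2 of the 46 genes, NPC1 and FUCA1, where the share over all genes was 1.5%. None was at least 2-fold lower with both, against 3.23% of all genes. SETD8 siRNA 1 gave 5 genes at least 2-fold higher (5.48% of all genes) and SETD8 siRNA 2 gave 4 (4.46% of all genes), and neither gave a gene 2-fold lower (7.75% and 6.65% of all genes). The genes were CTSS, CTSK, NPC1, FUCA1 and IDS for SETD8 siRNA 1, and FUCA1, NPC1, CTSF and TFEB for SETD8 siRNA 2. At a size of 1.5-fold, 13 genes were higher with SETD8 siRNA 1 (12.7% of all genes), 14 with SETD8 siRNA 2 (11.6% of all genes) and 6 with both (4.59% of all genes). No gene of the list was 1.5-fold lower with either siRNA, where 16.4% and 14.7% of all genes were, and 7.37% with both. Beyond the yardstick lay 3 genes with SETD8 siRNA 1, CTSS, CTSK and NPC1 (5.69% of all genes), and 0 with SETD8 siRNA 2 (4.07% of all genes).

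**Figure D1:**
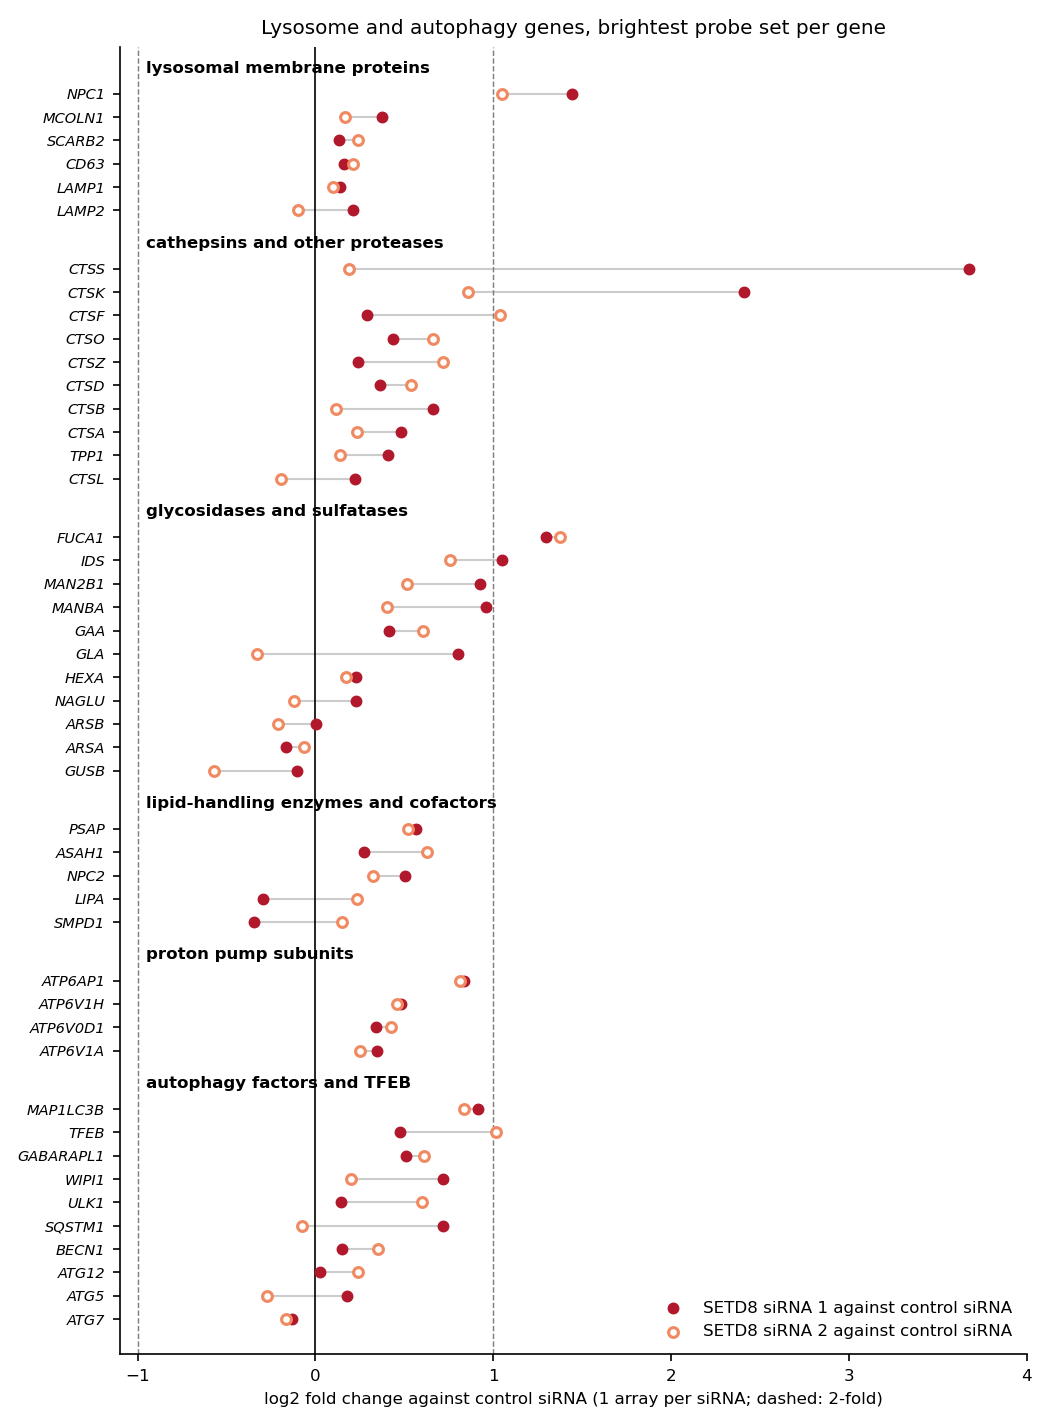
Log2 fold change against control siRNA of the 46 genes, grouped by role, on the brightest probe set of each gene, with 1 array per siRNA. Filled points are SETD8 siRNA 1, open points SETD8 siRNA 2, and dashed lines mark 2-fold. Most points lie between 0 and 1, and CTSS and CTSK stand apart with SETD8 siRNA 1 at 3.68 and 2.41.

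Bright genes were somewhat higher in general. In the highest quartile of signal (from 2103 upward), which held 27 of the 46 genes, the medians over all 3077 genes were 0.05 and 0.06 on the log2 scale, and 39.3% were higher with both siRNAs. In that quartile 21 of the 27 listed genes were higher with both, with medians of 0.41 with SETD8 siRNA 1 and 0.24 with SETD8 siRNA 2. The part of signal level in the result was not tested beyond this split.

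**Figure D2:**
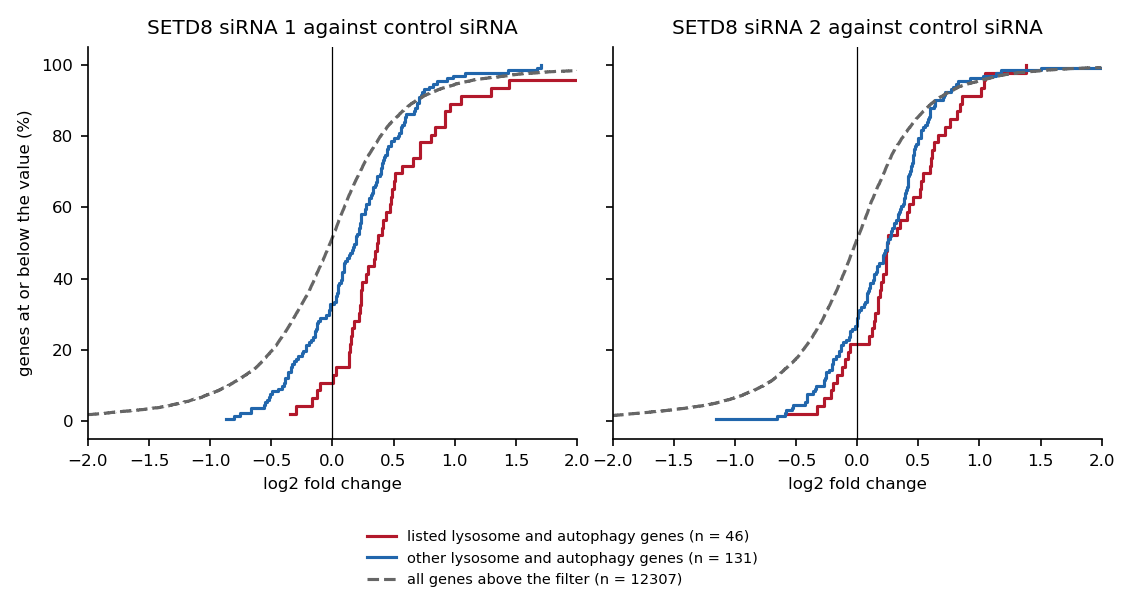
Cumulative share of genes (%) by log2 fold change against control siRNA, for SETD8 siRNA 1 and SETD8 siRNA 2, with the axis ending at -2 and 2. The red curve of the 46 listed genes lies to the right of the dashed curve of all 12307 genes over most of the range, with medians of 0.37 and 0.25 against -0.02 and -0.01, and the blue curve of 131 other lysosome and autophagy genes has medians of 0.19 and 0.24.

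Sequences before the gene start are shown for 4 genes: NPC1 and FUCA1, which had the largest change shared by both siRNAs, and MCOLN1 and GAA, which carry the full CLEAR palindrome of lysosomal genes. They are from RefSeq on GRCh38.p14, each 250 bases long and ending at the base before the annotated start, 5′ to 3′, and capitals mark CACGTG.
NPC1, chr18:23586507-23586756, minus strand: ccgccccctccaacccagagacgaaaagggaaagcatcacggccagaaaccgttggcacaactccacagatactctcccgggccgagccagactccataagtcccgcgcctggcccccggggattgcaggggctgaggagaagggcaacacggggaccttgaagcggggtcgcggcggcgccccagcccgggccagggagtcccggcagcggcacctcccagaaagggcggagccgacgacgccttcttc
FUCA1, chr1:23868291-23868540, minus strand: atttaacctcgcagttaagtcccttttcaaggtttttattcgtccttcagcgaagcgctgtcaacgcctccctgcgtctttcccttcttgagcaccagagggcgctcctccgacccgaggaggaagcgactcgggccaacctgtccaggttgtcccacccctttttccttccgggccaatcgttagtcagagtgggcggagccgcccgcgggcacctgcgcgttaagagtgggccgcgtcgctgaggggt
MCOLN1, chr19:7522374-7522623, plus strand: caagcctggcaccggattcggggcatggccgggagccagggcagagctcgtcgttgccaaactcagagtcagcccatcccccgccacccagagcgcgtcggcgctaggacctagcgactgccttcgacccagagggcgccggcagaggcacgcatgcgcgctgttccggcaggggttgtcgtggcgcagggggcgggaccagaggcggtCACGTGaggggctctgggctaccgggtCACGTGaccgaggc
GAA, chr17:80101331-80101580, plus strand: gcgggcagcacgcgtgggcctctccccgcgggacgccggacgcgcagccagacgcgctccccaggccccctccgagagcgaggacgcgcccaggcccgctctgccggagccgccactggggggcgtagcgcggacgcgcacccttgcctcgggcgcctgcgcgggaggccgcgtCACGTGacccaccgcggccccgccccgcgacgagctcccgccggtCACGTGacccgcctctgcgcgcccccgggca
These letters are absent from the NPC1 and FUCA1 windows, while MCOLN1 holds 2 matches, starting 41 and 14 bases before the gene start, and GAA 2, starting 76 and 31 bases before it.

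Promoter windows of 300 bases (250 before the gene start and 50 after it) were at hand for 34 of the 47 genes. The others were LAMP2, CTSB, CTSK, CTSO, CTSS, HEXA, MANBA, NAGLU, ARSA, ASAH1, PSAP, ATP6V1A and ATP6V1H. The motif CACGTG was found in 8 of the 34 (23.5%), against 10.2% of 10031 windows of genes above the filter. TCACGTGA, an extension that contains the same letters, was found in 5 of 34 (14.7%, against 1.97%), and the CLEAR palindrome, which adds 1 more base on each side of it, in 2 (5.88%, against 0.778%). All 3 are palindromes, so both strands are searched at once. Windows of the other lysosome and autophagy genes held CACGTG in 26 of 119 (21.8%). The 8 genes with CACGTG had median log2 fold changes of 0.35 for SETD8 siRNA 1 and 0.33 for SETD8 siRNA 2. The 25 measured genes without it had 0.41 and 0.24. A match is a description of the sequence and not a measured binding site. The windows follow the annotated gene start, and whether transcription begins there in these cells was not tested.

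Among the 6 lysosomal membrane proteins, NPC1 stood apart. NPC1, the protein that exports cholesterol from the lysosome, had a signal of 2270.9 with SETD8 siRNA 1, 1723.5 with SETD8 siRNA 2 and 833.8 with the control siRNA. The control array was thus the lowest, and the log2 fold changes were 1.45 and 1.05. A dimmer probe set gave 1.12 and 1.21 (signals of 99.9, 106.2 and 45.9), and the last of its 3 probe sets above the filter gave 0.41 and 0.11 (61.3, 49.7 and 46.1). Averaged over these 3, NPC1 had 0.99 ± 0.53 and 0.79 ± 0.59 (SD over 3 probe sets), under 2-fold with both siRNAs.

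The abundant structural proteins of the lysosomal membrane differed little between the arrays on their brightest probe sets. LAMP1, a glycoprotein that lines the inner face of the membrane, had 19326.8 with SETD8 siRNA 1, 18833.7 with SETD8 siRNA 2 and 17571.7 with the control siRNA, and its small difference with SETD8 siRNA 2 (0.10) turned to -0.01 after quantile normalization. The dimmest of its 4 probe sets disagreed, with 1062.0, 449.3 and 584.8 in the same order, or log2 fold changes of 0.86 and -0.38. LAMP2, a relative of LAMP1, had 8093.1, 6524.4 and 6975.9 in the same order, while the other 3 of its 4 probe sets were higher with both siRNAs. The tetraspanin CD63 had 23962.5, 24839.3 and 21436.2. SCARB2, the receptor that carries glucocerebrosidase to the lysosome, had log2 fold changes of 0.13 and 0.24, and all 4 of its probe sets were higher with both siRNAs. The calcium channel MCOLN1, whose upstream sequence is shown above, had 370.9, 321.0 and 285.9. The 6 genes had medians of 0.19 with either siRNA. Higher with both were 5 (31.1% of all genes), or 4 after quantile normalization (33.3% of all genes).

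Of the 10 cathepsins and other proteases, 9 were higher with both SETD8 siRNAs (31.1% of all genes) and 0 lower with both (33.9%). The group medians were 0.42 with SETD8 siRNA 1 and 0.39 with SETD8 siRNA 2. CTSS and CTSK differed most between the siRNAs. CTSS, a cysteine protease best known from antigen-presenting cells, had 1701.5 with SETD8 siRNA 1, 151.6 with SETD8 siRNA 2 and 133.0 with the control siRNA. Only the SETD8 siRNA 1 array was high, by 12.8-fold over control, while SETD8 siRNA 2 was at 1.14-fold. All 3 CTSS probe sets showed this, with log2 fold changes of 3.68, 3.17 and 2.64 for SETD8 siRNA 1 and of 0.19, -0.06 and 0.02 for SETD8 siRNA 2. CTSK, a protease that degrades collagen and is known from osteoclasts, had 5522.7, 1888.1 and 1040.0 on the SETD8 siRNA 1, SETD8 siRNA 2 and control arrays. Its log2 fold changes were 2.41 and 0.86, on a single probe set.

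The differences of CTSS and CTSK between the siRNAs were 3.49 and 1.55 on the log2 scale (siRNA 1 minus siRNA 2). They were the 2 genes of the list with a difference beyond the yardstick, where 5.01% of all genes lie by its construction. Of 10 markers of macrophages and other leukocytes, 2 passed the filter on signal (CSF1R and ITGAM), no marker exceeded a signal of 66.0 on any array, and their summed signal was 269.0 with SETD8 siRNA 1, 274.4 with SETD8 siRNA 2 and 206.7 with the control siRNA. Single markers did not move together. Of the 2 above the filter, ITGAM was highest with SETD8 siRNA 1 and CSF1R with SETD8 siRNA 2. Under the filter, CD3E, MS4A1 and CD163 were highest with SETD8 siRNA 1, and CD14 and LYZ with SETD8 siRNA 2. AIF1, TYROBP and the pan-leukocyte marker PTPRC (23.1, 15.9 and 31.1), also under the filter, were highest with the control siRNA. A leukocyte source of CTSS was not tested.

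Cathepsin B also was higher with SETD8 siRNA 1. CTSB, a cysteine protease, had 21925.7, 15040.8 and 13865.0 on its brightest probe set, a log2 fold change of 0.66 with SETD8 siRNA 1 and 0.12 with SETD8 siRNA 2. The other 4 probe sets gave 1.06, 0.35, 1.09 and 1.03 with SETD8 siRNA 1, and all 5 lay between -0.020 and 0.35 with SETD8 siRNA 2. CTSL, another cysteine protease, had 7380.2, 5533.5 and 6329.9, with the siRNAs on opposite sides of the control.

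Other cathepsins were higher with SETD8 siRNA 2 than with SETD8 siRNA 1. CTSF, a cysteine protease, had 134.3 with SETD8 siRNA 1, 225.2 with SETD8 siRNA 2 and 109.8 with the control siRNA, or 1.04 with SETD8 siRNA 2 on the log2 scale, which became 0.94 with a pseudocount of 16. CTSZ, a carboxypeptidase, had 3259.3, 4533.7 and 2760.5, but its dim second probe set gave -0.34 in place of 0.72 with SETD8 siRNA 2. CTSO had log2 fold changes of 0.44 and 0.66, and the aspartic protease CTSD had 0.36 and 0.54. All of these lay inside the yardstick for their signal.

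CTSA, the carboxypeptidase that protects beta-galactosidase and neuraminidase in a complex, had log2 fold changes of 0.48 and 0.24. TPP1, a tripeptidyl peptidase, had 2586.8, 2145.8 and 1952.5 on its brightest probe set, or 0.41 and 0.14. The dimmest of its 4 probe sets gave 2.51 and 2.00 (signals of 127.3, 89.6 and 22.4), and all 4 were higher with both siRNAs. The size of the TPP1 difference therefore depended on the probe set, whereas its direction did not.

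**Figure D3:**
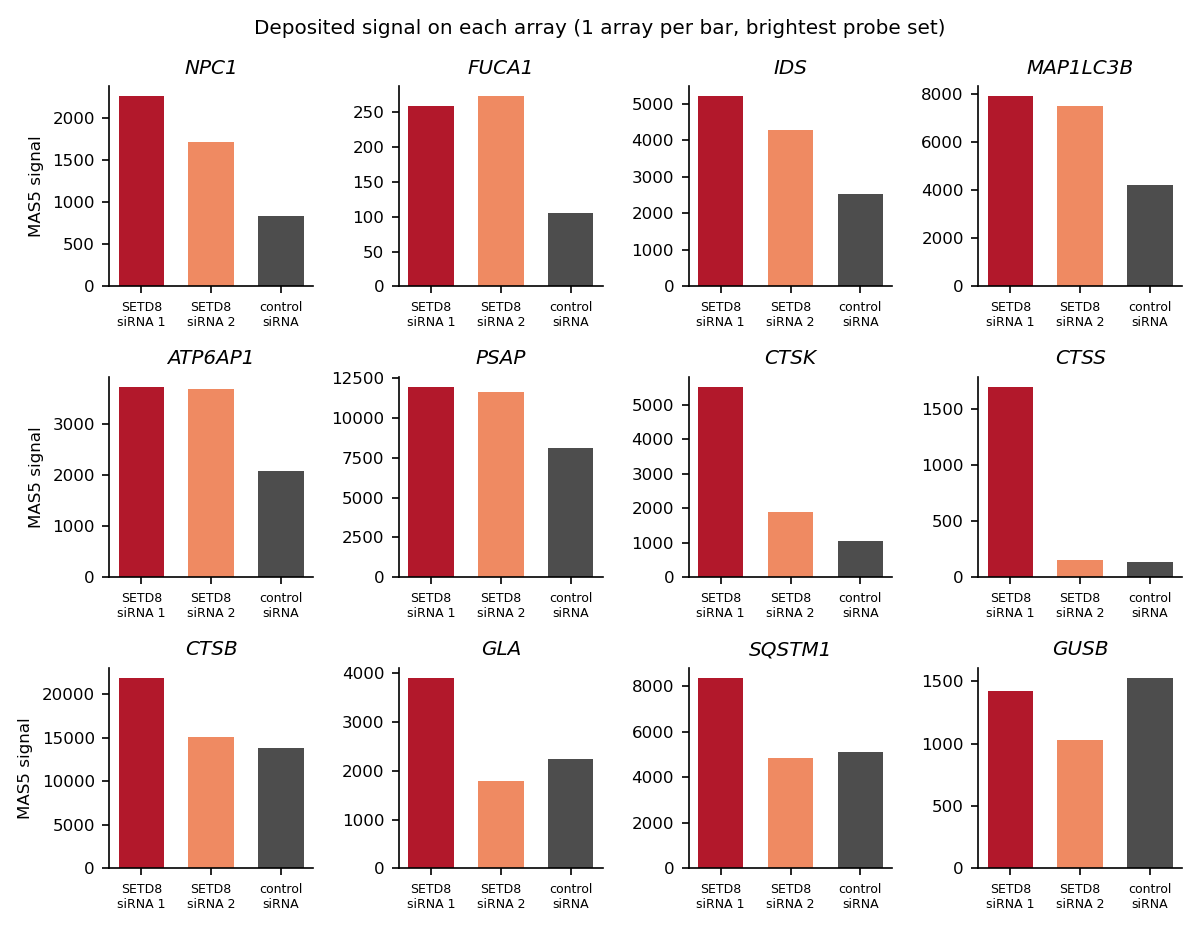
Deposited MAS5 signal (linear scale, axis from 0) of 12 genes on the SETD8 siRNA 1, SETD8 siRNA 2 and control siRNA arrays, 1 array per bar. NPC1, FUCA1, IDS, MAP1LC3B, ATP6AP1 and PSAP are lowest on the control array, whereas CTSS and CTSB are high with SETD8 siRNA 1 alone and GUSB is highest on the control array at 1531.0.

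Glycosidases and sulfatases were the most mixed group. Of 11 measured, 6 were higher with both siRNAs (31.1% of all genes) and 2 lower with both (33.9%). The medians were 0.41 for SETD8 siRNA 1 and 0.17 for SETD8 siRNA 2. The median for SETD8 siRNA 2 turned to -0.062 when all probe sets above the filter were averaged. FUCA1, the lysosomal alpha-fucosidase, had 259.0 with SETD8 siRNA 1, 274.0 with SETD8 siRNA 2 and 105.4 with the control siRNA. Both SETD8 siRNA arrays were thus higher by a similar amount, with log2 fold changes of 1.30 and 1.38, inside the yardstick of 1.72 for this signal. Its other probe set was under the filter (13.8, 2.9 and 15.1), and the mean over both probe sets was 0.58 and 0.51.

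IDS, the sulfatase that starts the breakdown of heparan and dermatan sulfate, was the gene read by the most probe sets. Its brightest had 5231.2, 4277.4 and 2529.6 on the SETD8 siRNA 1, SETD8 siRNA 2 and control arrays. All 7 probe sets above the filter were higher with both siRNAs, 6 of them by at least 2-fold with SETD8 siRNA 1 and 0 with SETD8 siRNA 2. Their mean log2 fold change was 1.13 ± 0.21 with SETD8 siRNA 1 and 0.70 ± 0.32 with SETD8 siRNA 2 (SD over 7 probe sets). Probe sets of a gene are repeat readings of the same RNA on 1 array and not replicates of the knockdown.

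Both mannosidases of the list were close to 2-fold higher with SETD8 siRNA 1. MAN2B1, an alpha-mannosidase, had 900.1, 679.7 and 474.7, or 1.90-fold and 1.43-fold. MANBA, the beta-mannosidase, had 1425.8, 969.3 and 732.7, or 1.95-fold and 1.32-fold. After quantile normalization both just passed 2-fold with SETD8 siRNA 1. GAA, the acid alpha-glucosidase, had 203.7, 232.2 and 152.8.

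GLA, alpha-galactosidase A, had 3909.9 with SETD8 siRNA 1, 1782.7 with SETD8 siRNA 2 and 2241.0 with the control siRNA. Only SETD8 siRNA 1 was high, and the log2 difference between the siRNAs was 1.13, just under the yardstick of 1.14. With CTSS and CTSK it made 3 genes at least 2-fold higher with SETD8 siRNA 1 than with SETD8 siRNA 2 (6.38% of all genes), and no gene of the list was 2-fold lower (6.18% of all genes). GUSB, the beta-glucuronidase, had 1423.4, 1029.5 and 1531.0, and was the gene of the list furthest below control with SETD8 siRNA 2, at -0.57.

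Remaining members of this group lay near the control. HEXA, the alpha subunit of beta-hexosaminidase, had log2 fold changes of 0.23 and 0.17 on its brightest probe set and of -0.41 and -0.92 on a dim one just above the filter. NAGLU, a glucosaminidase of heparan sulfate, had 0.23 and -0.12. The arylsulfatases ARSA and ARSB had -0.17 and -0.06, and 0.00 and -0.21. The ARSB probe sets disagreed, the dimmest of 3 giving 1.14 and 0.39.

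Among the 5 lipid-handling enzymes and cofactors, PSAP, ASAH1 and NPC2 were higher with both siRNAs (31.1% of all genes). For the other 2 the siRNAs lay on opposite sides of the control. PSAP, the precursor of the saposins that present lipids to hydrolases, had 11951.2 with SETD8 siRNA 1, 11591.3 with SETD8 siRNA 2 and 8073.4 with the control siRNA. A second probe set repeated this (2413.4, 2384.7 and 1632.5), and the log2 fold changes were 0.57 and 0.56 with SETD8 siRNA 1 and 0.52 and 0.55 with SETD8 siRNA 2. NPC2, which hands cholesterol to NPC1, had 10012.9, 8817.4 and 7050.0, or 1.42-fold and 1.25-fold.

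ASAH1, the acid ceramidase, had 6976.6, 8919.1 and 5768.4, with all 4 probe sets above the filter higher with SETD8 siRNA 2 (0.45 to 0.79) and 3 of 4 with SETD8 siRNA 1. LIPA, the acid lipase that frees cholesterol from its esters, had 2863.8, 4134.0 and 3516.0. SMPD1, the acid sphingomyelinase, had 1096.5, 1543.1 and 1392.8. For LIPA and SMPD1 the control thus lay between the siRNAs. A dim second SMPD1 probe set gave -1.41 and -1.18 (48.3, 56.4 and 128.2), the only 1 of the 96 probe sets at least 2-fold lower with both siRNAs (2.93% of all probe sets tested). The group medians were 0.27 and 0.32, and with shared probe sets left out that of SETD8 siRNA 1 was -0.081 over 3 genes.

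All 4 measured parts of the lysosomal proton pump, the V-ATPase that acidifies the lumen, were higher with both siRNAs (31.1% of all genes). ATP6AP1, an accessory subunit, had 3745.0 with SETD8 siRNA 1, 3691.1 with SETD8 siRNA 2 and 2096.5 with the control siRNA, or 1.79-fold and 1.76-fold. ATP6V1H, a regulatory subunit of the cytosolic sector, had 3356.7, 3304.0 and 2401.5. ATP6V0D1, of the membrane sector, had 3201.8, 3396.0 and 2525.8, and ATP6V1A, the catalytic subunit, had 7374.5, 6918.8 and 5809.4. On the brightest probe set of each gene, the SETD8 siRNA arrays differed from each other by at most 0.09 on the log2 scale. The control array was the lowest for each. A dim ATP6V1H probe set above the filter gave 0.31 with SETD8 siRNA 1 and 0.15 with SETD8 siRNA 2. The group medians were 0.41 and 0.44. A dim ATP6V1H probe set under the filter had 2.3, 2.9 and 24.4. Both SETD8 siRNA readings were raised to the floor of 11.7, which fixed its log2 fold change at -1.06 with both.

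Another 12 V-ATPase subunits, from a list by name also made with earlier results of these data known, showed the same pattern less evenly. Of these, 9 were higher with both siRNAs (31.1% of all genes) and 1, ATP6V0E2, was lower with both (33.9%). The medians were 0.43 with SETD8 siRNA 1 and 0.46 with SETD8 siRNA 2. Higher by at least 1.5-fold with both were 2 of the 12 (4.59% of all genes). These were ATP6V0B (6833.0, 5890.9 and 3579.3) and ATP6V1G1 (15561.2, 14331.8 and 9264.4). None of the 12 reached 2-fold higher with both (1.5% of all genes). ATP6V0A2, of the membrane sector, differed most between the siRNAs in this list (0.27 and -0.58).

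Of the 10 autophagy genes, 7 were higher with both siRNAs (31.1% of all genes) and 1, ATG7, was lower with both (33.9%). After quantile normalization 6 were higher with both (33.3% of all genes), where ATG12 turned to -0.02 with SETD8 siRNA 1. The 10 genes had medians of 0.33 and 0.30. MAP1LC3B, the LC3 protein that coats autophagosomes, had 7939.6 with SETD8 siRNA 1, 7512.4 with SETD8 siRNA 2 and 4204.1 with the control siRNA. Its second probe set had 6467.8, 4967.1 and 3321.7, so that both readings placed the control lowest. The log2 fold changes were 0.92 and 0.96 with SETD8 siRNA 1 and 0.84 and 0.58 with SETD8 siRNA 2. GABARAPL1, an LC3 relative, had 3283.9, 3523.0 and 2307.9, and both of its probe sets were higher with both siRNAs.

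TFEB, the transcription factor of lysosomal genes, had 227.3, 331.2 and 163.7, or 1.39-fold with SETD8 siRNA 1 and 2.02-fold with SETD8 siRNA 2. Its other probe set, under the filter, pointed the opposite way (10.2, 13.6 and 25.6), and the mean of both gave 0.05 on the log2 scale with SETD8 siRNA 2. WIPI1, which binds the forming autophagosome membrane, had 7847.7, 5466.3 and 4765.6 on its brightest probe set and log2 fold changes of 1.08 and 0.64 on the other.

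SQSTM1, the receptor p62 that brings ubiquitinated cargo into autophagosomes, had 8383.0 with SETD8 siRNA 1, 4838.8 with SETD8 siRNA 2 and 5105.8 with the control siRNA. Only SETD8 siRNA 1 was high. Of its 4 probe sets above the filter, 3 were higher with SETD8 siRNA 1 and 1 with SETD8 siRNA 2. ULK1, the kinase that starts autophagy, had 125.3, 171.7 and 113.5. BECN1, of the lipid kinase complex that follows it, had log2 fold changes of 0.15 and 0.35.

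The conjugation factors were near the control. ATG5 had 2607.7, 1907.3 and 2306.8, with all 3 of its probe sets lower with SETD8 siRNA 2. ATG12, its partner in a covalent conjugate, had 5656.2, 6552.1 and 5553.4. ATG7, the enzyme that activates ATG12 and the LC3 proteins, had 430.8, 420.2 and 471.4 on its brightest probe set, but an almost equally bright one had 533.3, 418.1 and 378.7. Its place among the genes lower with both siRNAs thus rested on the choice of probe set.

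**Figure D4:**
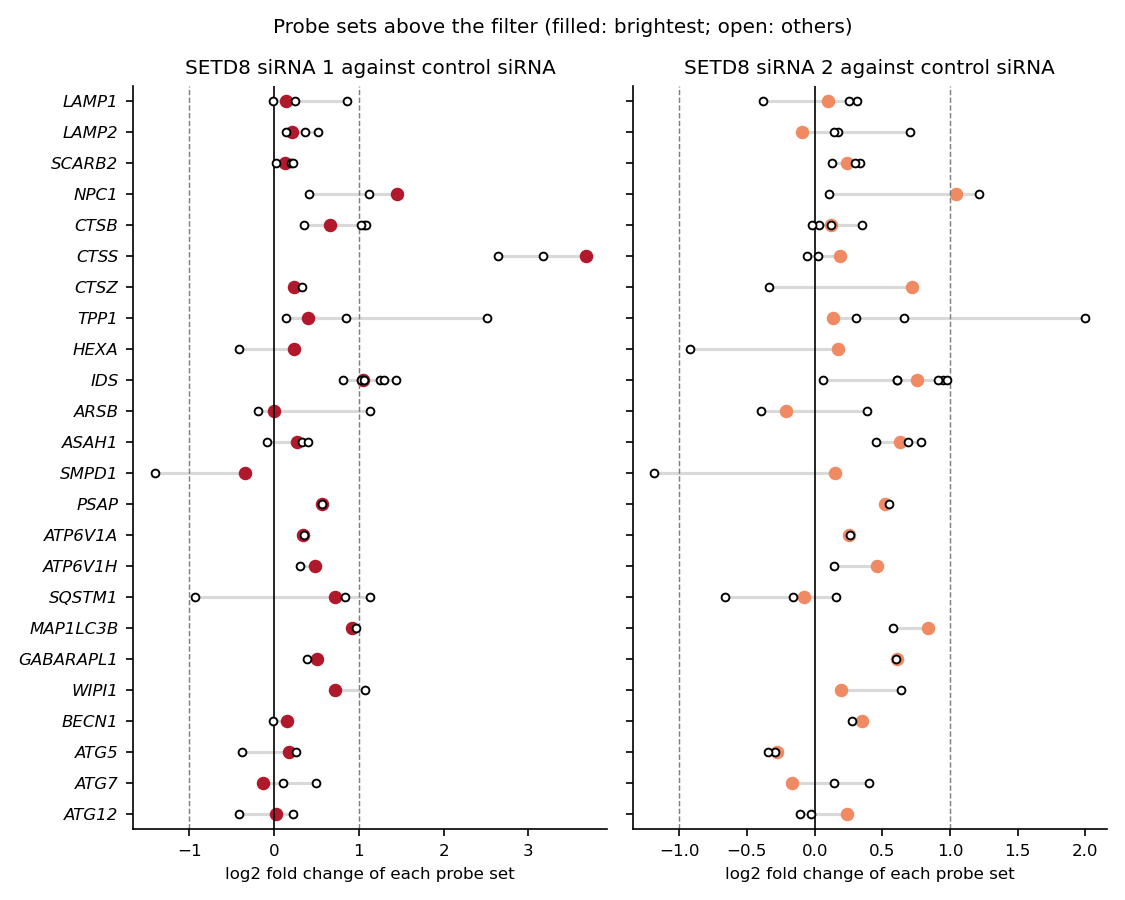
Log2 fold change against control siRNA of every probe set above the filter, for the 24 genes with at least 2 of them, with SETD8 siRNA 1 on the left and SETD8 siRNA 2 on the right. Coloured points are the brightest probe set of a gene, small open points the others, and dashed lines mark 2-fold. The 3 CTSS and 7 IDS probe sets all lie on 1 side of 0 with SETD8 siRNA 1, whereas those of SQSTM1, ARSB and ATG7 lie on both sides.

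Probe sets of the same gene did not always point the same way. Of 24 genes with at least 2 probe sets above the filter, all probe sets of a gene had the same direction for 15 genes with SETD8 siRNA 1 and for 13 with SETD8 siRNA 2. For 10 genes all were higher with both: SCARB2, NPC1, TPP1, IDS, PSAP, ATP6V1A, ATP6V1H, MAP1LC3B, GABARAPL1 and WIPI1. Over the 96 probe sets, 68 were higher with both siRNAs (29.6% of all 23224 probe sets tested) and 9 lower with both (35.2%). At least 2-fold higher were 20 with SETD8 siRNA 1 (5.12%), 6 with SETD8 siRNA 2 (4.06%) and 4 with both (1.37%). The 20 include 6 of IDS, 3 of CTSB and 3 of CTSS, so they are not independent readings.

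A further 150 lysosome and autophagy genes were listed by name in 8 groups, again with earlier results of these data known. The filter was passed by 131. Of these, 70 were higher with both siRNAs (31.1% of all genes) and 19 lower with both (33.9% of all genes). None of them was at least 2-fold higher with both (1.5% of all genes) or 2-fold lower with both (3.23% of all genes). For SETD8 siRNA 1 their median was 0.19, between those of the 46 genes (0.37) and of all genes (-0.02). Their median for SETD8 siRNA 2 was 0.24, almost the same as the 0.25 of the 46 genes. The order for SETD8 siRNA 2 was reversed when the filter was set at the 75th percentile. The median was then 0.30 over 105 further genes against 0.24 over 37 listed genes. By group, the V-ATPase subunits described above had the highest medians. Sorting factors that carry enzymes to the lysosome had -0.11 and 0.08 (12 genes, 4 higher and 4 lower with both), and regulators of mTORC1 and of TFEB and its relatives had 0.04 and 0.14 (19 genes, 7 higher and 3 lower with both).

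The other soluble hydrolases had medians of 0.19 and 0.33 (13 of 26 higher and 1 lower with both), and the other membrane proteins and transporters 0.23 and 0.21 (10 of 17 higher and 3 lower with both). Other autophagy genes gave 0.22 and 0.23 for initiation and membrane factors (12 of 19 higher and 1 lower with both). Conjugation factors had 0.06 and 0.17 (4 of 10 higher and 3 lower), and cargo receptors and fusion factors 0.29 and 0.36 (11 of 16 higher and 3 lower). Over all genes, 31.1% were higher and 33.9% lower with both. CTSH, an aminopeptidase of the cathepsin family, had 498.8 with SETD8 siRNA 1, 68.7 with SETD8 siRNA 2 and 152.8 with the control siRNA. The control thus lay between the siRNAs, and the difference of 2.86 on the log2 scale exceeded the yardstick of 2.21. TP53INP2, a nuclear protein that takes part in autophagosome formation, ran the other way, with 481.2, 1925.7 and 677.4 and a difference beyond the yardstick of 1.25.

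In each other group, the gene with the widest gap between siRNAs stayed inside the yardstick. TPCN1, a channel of endosomes and lysosomes, had 545.1, 192.3 and 201.8. M6PR, a receptor for mannose 6-phosphate on lysosomal enzymes, had log2 fold changes of 0.41 and -0.27. DEPTOR, an inhibitor of mTOR, had -0.03 and 1.14 at a low signal (32.3, 72.5 and 33.0). ATG10, which joins ATG12 to ATG5, had -0.66 and 0.10, and EPG5, a tether of autophagosomes to lysosomes, had -0.52 and 0.45.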

How the data were processed

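Total RNA of 3 IMR-90 cultures (1 per siRNA) was hybridised to Affymetrix arrays of 1 colour. The authors deposited intensity values: a linear MAS5 signal for each probe set, per the submitters' processing notes. No MAS5 version or setting was found in the sources used here. Leaving out the extreme 2%, every array averaged 497, so the arrays were not scaled again, and a shift of all genes would be hidden.

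Gene names come from GEO's platform annotation, brought up to date through gene numbers (41037 of 41091 found in RefSeq, GRCh38.p14). A single gene was named for 41091 of the 54613 probe sets, several for 1801 and none for 11721. Signals were raised to a floor of 11.7, the 25th percentile, and log2 was taken. Each gene was read from its brightest probe set by mean log2 value, and kept where that reached 5.39, the median of all probe sets (a signal of 42.0). Fold changes, counts past 2-fold and medians are given beside those of all genes, and the number of arrays limits their precision.

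The 47 genes and the other lists were chosen with earlier results of these data known. The text names KMT5A, all listed genes and, for each further list, genes at least 2-fold apart from control with both siRNAs and the gene most different between the siRNAs. ATP6V0B, ATP6V0E2, ATP6V1G1, the cell type markers and the genes of the last paragraph were named after their values were seen. Alternatives changed the scaling (median, quantile), the low values (a pseudocount of 16), the filter (none, or the 75th percentile), the probe set (averages over all or over those above the filter, or without probe sets whose suffix, such as _s_at, marks them as shared) and the fold (1.5 and 3). Python 3.11.15, numpy 2.4.6, pandas 2.3.3 and matplotlib 3.10.9 were used.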

Additional observations from a re-analysis of the deposited data

Results flagged for a closer look

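For 9 of the 46 genes the SETD8 siRNA arrays lay on opposite sides of the control array. The log2 difference, SETD8 siRNA 1 minus SETD8 siRNA 2, was 1.13 for GLA, 0.79 for SQSTM1, 0.45 for ATG5, 0.42 for CTSL, 0.35 for NAGLU, 0.31 for LAMP2 and 0.21 for ARSB. It was -0.53 for LIPA and -0.49 for SMPD1. With 1 array per siRNA these differences were not tested, and each was smaller than the yardstick for its signal.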

How the results depend on the processing

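No paired analysis was possible because each siRNA had 1 array. With 1 array a group, no alternative gives a replicate error, and dim probe sets are limited by background. Over the 8 alternatives of scaling, low values, filter and probe set, the median log2 fold change of the listed genes was 0.34 to 0.42 for SETD8 siRNA 1 and 0.24 to 0.32 for SETD8 siRNA 2 (0.32 with shared probe sets left out). The median difference between the siRNAs (siRNA 1 minus siRNA 2), 0.05 in the main setting, lay between 0.04 and 0.11. Between 24 and 34 genes were higher with both siRNAs (24 of 31 with shared probe sets left out), and between 2 and 4 lower with both.

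Counts at 2-fold moved more. Genes higher with both, 2 in the main setting, were 0 with all probe sets averaged, 1 with those above the filter averaged, 1 with the filter at the 75th percentile, 3 of 31 with shared probe sets left out, 6 at 1.5-fold and 0 at 3-fold. For SETD8 siRNA 1, the 5 higher genes became 3 with all probe sets averaged, 3 at the 75th percentile, 8 with shared probe sets left out, 13 at 1.5-fold and 2 at 3-fold. For SETD8 siRNA 2, the 4 higher genes became 1 with all probe sets averaged, 1 at the 75th percentile, 2 with the pseudocount, 14 at 1.5-fold and 0 at 3-fold. With all probe sets averaged, 1 gene was 2-fold lower with SETD8 siRNA 1 (ARSA) and 1 with SETD8 siRNA 2 (NAGLU). With SETD8 siRNA 1 over SETD8 siRNA 2, 1 gene was higher at 3-fold in place of 3, and 1 was lower in place of 0 at 1.5-fold or with all probe sets averaged.

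Of the medians by role, 2 turned: -0.081 for lipid-handling genes with SETD8 siRNA 1 (shared probe sets left out) and -0.062 for glycosidases and sulfatases with SETD8 siRNA 2 (probe sets above the filter averaged). The further 131 genes had 0.10, 0.13 and 0.11 with SETD8 siRNA 1 (all probe sets averaged, those above the filter averaged, shared left out), and 0.29, 0.30 and 0.18 with SETD8 siRNA 2 (median scaling, 75th percentile, all probe sets averaged). A stricter filter and leaving out shared probe sets test fewer genes or probe sets by construction. Median scaling multiplies all signals of an array by 1 factor. With it, the median over all genes with SETD8 siRNA 2 was 0.03 in place of -0.01. For the other settings the cause was not tested.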

Other observations

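Among the 131 further lysosome and autophagy genes, 4 were at least 2-fold higher than control with SETD8 siRNA 1 (5.48% of all genes) and 5 with SETD8 siRNA 2 (4.46% of all genes), so such genes were not more frequent here than on the array at large. Of these, the 5 genes not yet described follow, chosen after their values were seen. LGMN, the lysosomal asparaginyl endopeptidase, had a signal of 292.9 with SETD8 siRNA 1, 1731.6 with SETD8 siRNA 2 and 376.9 with the control siRNA. Only SETD8 siRNA 2 was high (2.20 on the log2 scale), the reverse of CTSS. This fold change and the difference between the siRNAs (siRNA 1 minus siRNA 2), -2.56, both lay beyond the yardstick of 1.72. IDUA, the iduronidase that acts after IDS in glycosaminoglycan breakdown, had 101.2, 200.5 and 88.6. GNPTG, a subunit of the enzyme that tags hydrolases with mannose phosphate, had 875.0, 1277.9 and 626.4. With SETD8 siRNA 1, the sulfatase ARSG had 291.3 against 121.0 with SETD8 siRNA 2 and 91.3 with the control siRNA, and the V-ATPase subunit ATP6V1C1 had 3869.6, 2358.7 and 1822.7. No test of these differences was possible with 1 array per siRNA.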
